A study of Homo sapiens with 6 samples.

Results

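The genes described here are 10 genes of the actin cytoskeleton, taken from a named list among the 60658 genes of 6 human prostate cancer cell line libraries. The list holds the beta-thymosins TMSB4X, TMSB10 and TMSB15A, the cytoplasmic actins ACTB and ACTG1, the tropomyosins TPM1 and TPM2, the profilin PFN1, the cofilin CFL1 and the myosin light chain MYL9. It was drawn up with values of these libraries known, TMSB4X having been picked because it was higher in all 4 resistant sublines, so the levels against the parental lines are a description with no test. Each line was sequenced as a single library. C4-2B is a castration-resistant line, TaxR is its docetaxel-resistant subline, kept under 5 nM docetaxel, and CabR is a cabazitaxel-resistant subline of TaxR, kept under 5 nM cabazitaxel. DU145 is another castration-resistant line, DTXR is its docetaxel-resistant subline and CTXR a cabazitaxel-resistant subline of DTXR, kept under the same concentrations. All lines grew in RPMI 1640 with serum, penicillin and streptomycin, and the labels call the cells untreated at harvest. The labels do not say whether a subline is a clone, and the title of TaxR also carries the word old, without explanation. Docetaxel and cabazitaxel are taxanes, which stabilise microtubules.

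Actin shuttles between single subunits and filaments. Beta-thymosins are very short peptides that bind single actin subunits and hold them in reserve, while profilin recharges subunits and delivers them to growing filament ends. Cofilin severs and shortens old filaments, tropomyosins lie along filaments and protect them, and myosin light chains switch on the motor that pulls on them. Together these proteins set cell shape, adhesion and movement in prostate carcinoma cells as in other cells.

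Values are FPKM, fragments scaled to transcript length and library size, as deposited. Levels are therefore per length and can be set beside each other between genes. Higher and lower are used for a log2 ratio of (FPKM + 1) of at least 1 in size, a rule with no p-value, which shrinks differences at low FPKM. With a single library per line, differences between lines have no replicate check. All 10 genes belong to the 17436 measured genes, those that reached 1 FPKM in at least 1 library, but MYL9 was under this level in C4-2B. Read depth is not given in the sources used here. Total FPKM lay between 711766 and 818430 per library, and mitochondrial genes held 17.9% to 40.7% of it, with more in the DU145 lineage than in the C4-2B lineage. All 6 C4-2B-side marker genes (among them KLK3 and FOLH1) reached 1 FPKM in C4-2B, TaxR and CabR, and 1 of the 6 did in each line of the DU145 lineage. All 7 DU145-side markers reached it in DU145, DTXR and CTXR, and in TaxR, against 1 of 7, VIM, in C4-2B and in CabR. The 6 other than VIM summed to 17.8 FPKM in TaxR and 0.814 in CabR, against 0.318 in C4-2B, while VIM had 60.8 FPKM in TaxR and 41.3 in CabR, against 61.0 in C4-2B. Markers of blood, vessel and stromal cells summed to 0.144 to 2.50 FPKM. The median excess of the DU145-side markers in TaxR over C4-2B was 1.54% of their DU145 level (from -0.0435% for VIM to 5.26% for CD44), and 0.0463% in CabR. Results for TMSB4X and MYL9 are also given with the median or the highest share of each gene's DU145 level subtracted from TaxR.

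The coding sequences of the beta-thymosins are shown because the results turn on how TMSB4X differed from TMSB10 and TMSB15A. They are taken from GENCODE release 29 (GRCh38) and written 5′ to 3′ from the start codon to the stop codon. Capitals mark the bases of TMSB10 and TMSB15A that differ from TMSB4X at the same place counted from the start codon, and the bases of TMSB15A beyond the end of TMSB4X. The TMSB4X frame lies at chrX:12976262-12976811 on the plus strand, that of TMSB10 at chr2:84906018-84906423 on the plus strand, and that of TMSB15A at chrX:102514087-102515163 on the minus strand, each in 2 coding exons.
TMSB4X: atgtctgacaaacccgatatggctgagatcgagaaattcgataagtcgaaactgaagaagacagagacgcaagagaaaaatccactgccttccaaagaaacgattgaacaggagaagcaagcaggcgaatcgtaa
TMSB10: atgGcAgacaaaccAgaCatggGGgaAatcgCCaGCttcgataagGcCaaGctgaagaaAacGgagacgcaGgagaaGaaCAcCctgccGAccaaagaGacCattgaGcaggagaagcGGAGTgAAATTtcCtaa
TMSB15A: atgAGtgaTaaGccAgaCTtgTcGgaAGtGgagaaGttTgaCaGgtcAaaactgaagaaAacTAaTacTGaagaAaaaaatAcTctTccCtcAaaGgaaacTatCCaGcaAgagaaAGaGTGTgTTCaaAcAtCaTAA
Of the 135 bases of the TMSB4X frame, TMSB10 has 72.6% and TMSB15A 65.2% identical at the same place. The frame of TMSB15A is 138 bases long.

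TMSB4X, which encodes thymosin beta 4 (ENSG00000205542, chromosome X, 12975108 to 12977227, plus strand, GRCh38), was higher in every resistant subline than in its parent. Along the C4-2B lineage its level was 26.9 FPKM in C4-2B, then 63.0 in TaxR and 127 in CabR. Along the DU145 lineage it was 120.0 FPKM in DU145, then 299 in DTXR and 318 in CTXR. Each resistant subline thus stood 2.34-fold (TaxR), 4.71-fold (CabR), 2.49-fold (DTXR) and 2.65-fold (CTXR) above its parent, and the level in CabR came close to that in parental DU145. The log2 ratios of (FPKM + 1) were 1.20, 2.19, 1.31 and 1.40 in the same order. For the cabazitaxel step the log2 ratio of CabR to TaxR was 0.998, just under the size rule, and that of CTXR to DTXR was 0.09, or between -0.02 and 0.14 under the other scalings and pseudocount. The rank of TMSB4X among measured genes moved with this, to 1580 in TaxR and 684 in CabR, against 3886 in C4-2B, and to 205 in DTXR and 199 in CTXR, against 543 in DU145. With the median DU145-side share subtracted, TaxR had 61.2 FPKM and a log2 ratio of 1.15 to C4-2B, and with the highest share 56.7 FPKM and 1.05. Both subtractions used the level of parental DU145. The labels give no source for these marker transcripts, and shares of the higher TMSB4X levels of DTXR and CTXR were not subtracted. The highest share is therefore no upper limit, and whether TMSB4X in TaxR would stay past the rule with those levels was not tested. In RNA of whole cultures, a change in the share of cells that express a gene and a change in RNA per cell cannot be told apart.

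**Figure D1:**
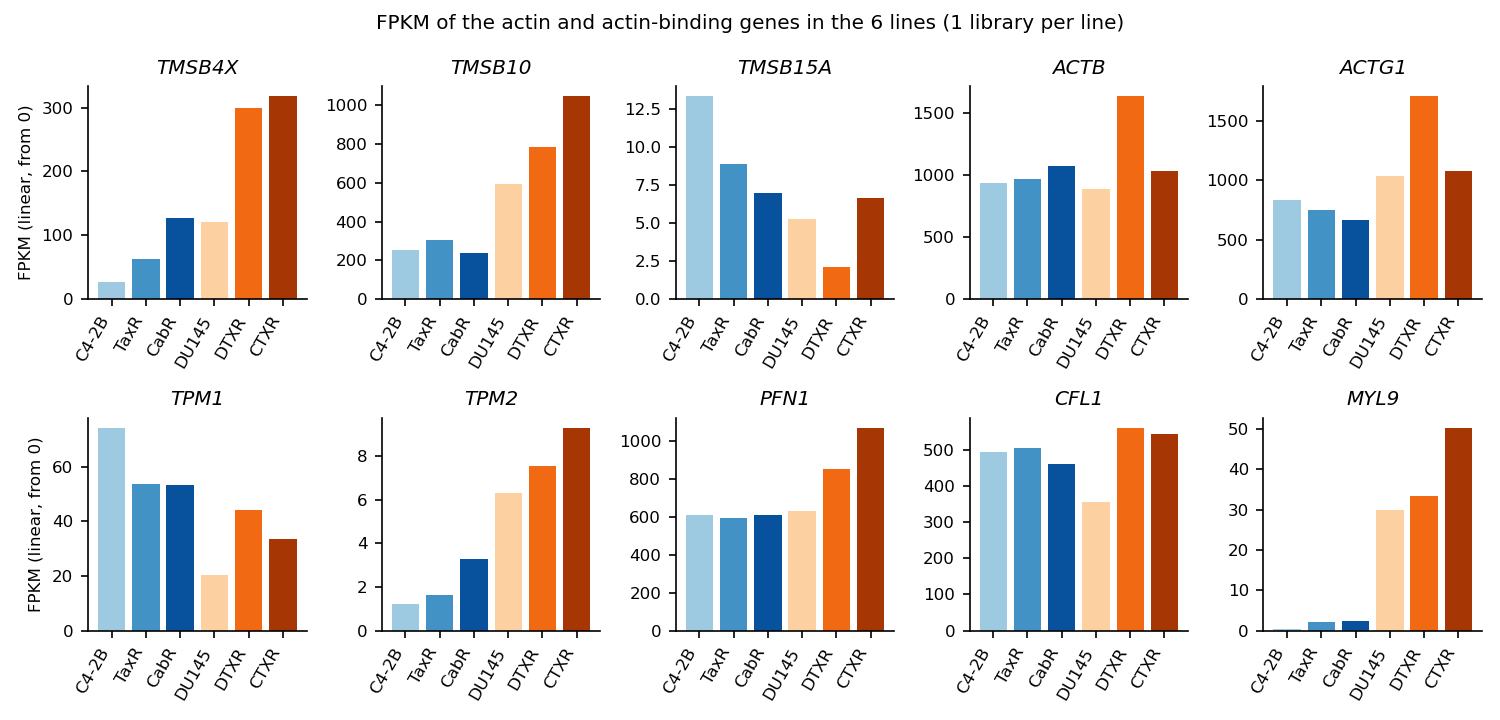
FPKM of the 10 genes in each line on linear axes that start at 0, 1 library per bar and no error bars, with the lines in order of selection. TMSB4X is taller in every resistant subline than in its parent, up to 318 FPKM in CTXR, while ACTB and ACTG1 peak in DTXR at 1636 and 1709 FPKM.

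Of all measured genes, 4 (0.0229%) were higher by the size rule in all 4 sublines, and TMSB4X was in this set by the way it was chosen. The others were the drug efflux pump ABCB1, the acyl-CoA-binding protein DBI and the STEAP family gene STEAP1B. The set held 57 genes with a pseudocount of 0.1, 14 with TaxR left out, and 3 under each of the 3 other scalings, each of which left DBI short of the rule in DTXR, where its log2 ratio was 1.002 as deposited. DBI had 663 FPKM in TaxR and 580.1 in CabR, against 276 in C4-2B, and 138 in DTXR and 163 in CTXR, against 68.3 in DU145. STEAP1B had 4.15 FPKM in TaxR and 3.96 in CabR, against 1.03 in C4-2B, and 14.6 in DTXR and 11.3 in CTXR, against 3.96 in DU145. Over the 4 log2 ratios to the parent, the 5 genes closest to TMSB4X among 9693 genes that reached 10 FPKM were the ribosomal protein pseudogene RPS26P6, STEAP1B, the calcium-binding protein CIB2, the secreted protein DMKN and the RNA-binding protein RBPMS2. Their root-mean-square differences from TMSB4X were 0.48 to 0.56 on the log2 scale.

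TMSB10, which encodes thymosin beta 10 (chromosome 2, 84905625 to 84906675), was the most abundant beta-thymosin in every line. It had 251 FPKM in C4-2B, then 307 in TaxR and 237 in CabR, and 595 FPKM in DU145, then 786 in DTXR and 1048 in CTXR. Its log2 ratios to the parent were 0.29 for TaxR, -0.08 for CabR, 0.40 for DTXR and 0.81 for CTXR, so no subline passed the size rule. TMSB15A, a scarce beta-thymosin first studied in rat prostate carcinoma (chromosome X, 102513676 to 102516784), had 13.4 FPKM in C4-2B, then 8.92 in TaxR and 7.01 in CabR. It had 5.29 FPKM in DU145, then 2.14 in DTXR and 6.69 in CTXR. TMSB15A was lower in DTXR than in DU145 by the size rule, with a log2 ratio of -1.001 that lies just past it, and higher in CTXR than in DTXR at 1.29. Its log2 ratios of -0.54 in TaxR and -0.84 in CabR did not pass. TMSB15A thus stood below C4-2B in both C4-2B sublines, in which TMSB4X was higher. The related gene TMSB15B, named after its values were seen, had 1.38 FPKM in DTXR and 0.907 in CTXR, against 0.697 in DU145. From DU145 to DTXR and from DTXR to CTXR it therefore went the other way from TMSB15A, without passing the size rule. The calls for TMSB15A were not recomputed with TMSB15B added, and how reads were divided between these genes is uncertain.

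Within a library the make-up of the beta-thymosins does not depend on how libraries are scaled. TMSB4X made up 16.6% of the summed FPKM of the 3 genes in TaxR and 34.2% in CabR, against 9.24% in C4-2B. It made up 27.5% in DTXR and 23.2% in CTXR, against 16.6% in DU145. The share of TMSB10 was 81.0% in TaxR and 63.9% in CabR, against 86.2% in C4-2B, and 72.3% in DTXR and 76.4% in CTXR, against 82.6% in DU145. The ratio of beta-thymosin FPKM to ACTB and ACTG1 FPKM was 0.221 in TaxR and 0.213 in CabR, against 0.164 in C4-2B. In the other lineage it was 0.325 in DTXR and 0.650 in CTXR, against 0.373 in DU145. CTXR had the highest ratio of the 6 lines and C4-2B the lowest, and DTXR, where both actins were most abundant, lay below its parent. TMSB4X alone against the actins stood in the order of selection in both lineages, at 0.0152 in C4-2B, then 0.0366 in TaxR and 0.0730 in CabR, and at 0.0621 in DU145, then 0.0894 in DTXR and 0.151 in CTXR. From DTXR to CTXR this ratio moved mostly with the actins, whose sum was 3345 FPKM in DTXR and 2110 in CTXR. TMSB4X itself had 299 FPKM in DTXR and 318 in CTXR.

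**Figure D2:**
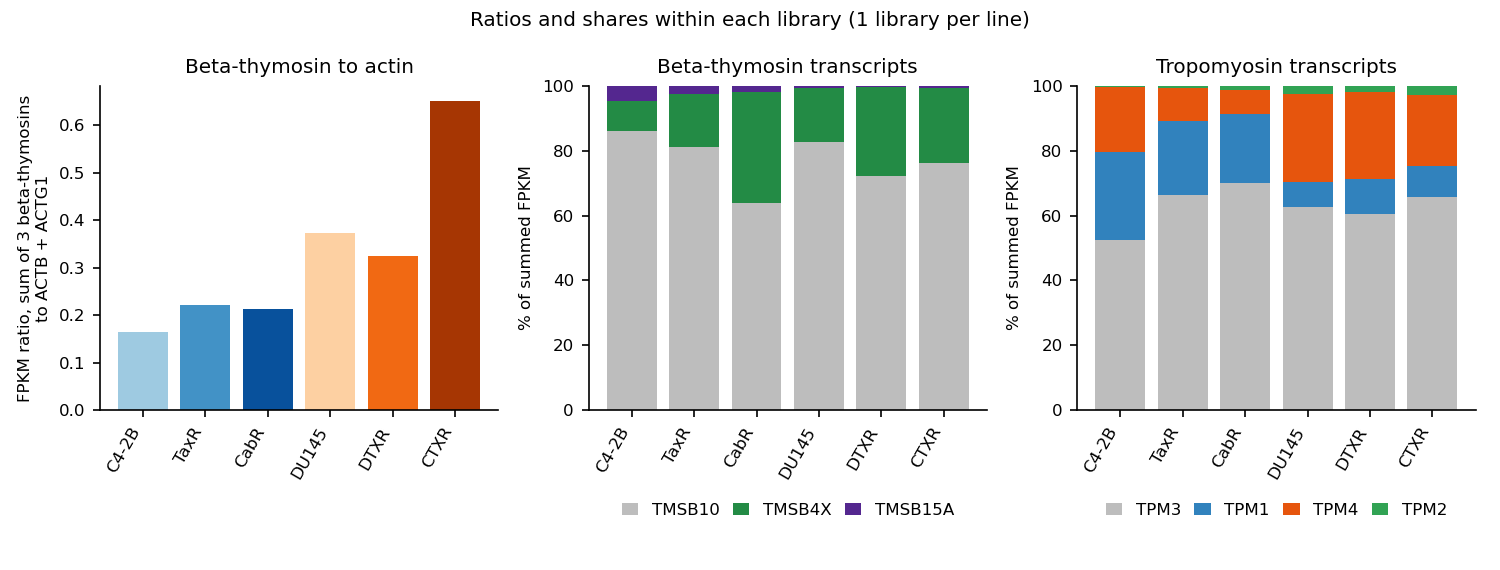
Left, summed FPKM of the 3 beta-thymosins divided by that of ACTB and ACTG1, from 0.164 in C4-2B to 0.650 in CTXR. Middle and right, the percentage of summed FPKM held by each beta-thymosin and by each tropomyosin gene. The TMSB4X part is larger in each resistant subline than in its parent, and the TPM4 part is smaller in TaxR (10.3%) and CabR (7.40%) than in C4-2B (19.8%).

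The cytoplasmic actins were among the most abundant genes of each library, at ranks 30 to 106 for ACTB and 28 to 127 for ACTG1. ACTB, the beta-actin gene often used as a loading standard (chromosome 7, 5527147 to 5563784), had 938 FPKM in C4-2B, then 966 in TaxR and 1071 in CabR. It had 891 FPKM in DU145, then 1636 in DTXR and 1035 in CTXR. ACTG1, the gamma-actin gene (chromosome 17, 81509971 to 81523847), had 834 FPKM in C4-2B, then 754 in TaxR and 666 in CabR, and 1041 FPKM in DU145, then 1709 in DTXR and 1075 in CTXR. Neither passed the size rule in any subline; the widest differences from a parent were in DTXR, with log2 ratios of 0.88 for ACTB and 0.72 for ACTG1. In CTXR the same ratios were 0.22 and 0.05, and that of ACTG1 ran from -0.10 to 0.07 over the settings tried. The share of ACTB in the sum of both actins was 56.2% in TaxR and 61.7% in CabR, against 52.9% in C4-2B, and 48.9% in DTXR and 49.0% in CTXR, against 46.1% in DU145. ACTB therefore held a larger part of the actin FPKM in each subline than in its parent.

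Actin genes are known targets of serum response factor, which binds the CArG box and is switched on when single actin subunits become scarce. The 250 bases before the start were available in RefSeq promoter windows (GRCh38.p14) for 8 of the 10 genes, in 9 windows, and the promoters of ACTB and MYL9 were not analysed here. Of the 8 genes, ACTG1 alone had a CArG box in its window, beside 1.16% of all 35116 windows and 11 of 107 genes of the wider list described further on. The background is a share of windows and the other counts are of genes, so they are not like for like, and nothing is read from them. A CArG box reads as a CArG box on both strands, so 1 strand was searched. The stretch of the ACTG1 promoter that holds it, at chr17:81512839-81512938 on the minus strand, is shown with the box in capitals, 94 bases before the RefSeq start. This stretch lies within the GENCODE span of ACTG1 given above, which begins further upstream.
ACTG1: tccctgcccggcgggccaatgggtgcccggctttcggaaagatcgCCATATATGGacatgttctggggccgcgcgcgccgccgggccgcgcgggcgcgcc
A match describes these letters and not a bound site. SRF itself had 15.6 FPKM in TaxR and 11.9 in CabR, against 15.4 in C4-2B, and 27.5 in DTXR and 18.1 in CTXR, against 25.0 in DU145, with no log2 ratio past the size rule.

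Tropomyosins lie along filaments, and TPM1 was past the size rule in the DU145 lineage only through DTXR. TPM1 (chromosome 15, 63042632 to 63071915) had 74.2 FPKM in C4-2B, then 53.5 in TaxR and 53.3 in CabR, with log2 ratios to the parent of -0.47 in both sublines. In the other lineage TPM1 had 20.2 FPKM in DU145, then 44.3 in DTXR and 33.4 in CTXR. Its log2 ratio to DU145 was 1.10 in DTXR, past the size rule, and stood at 0.70 in CTXR. TPM2, a scarce form (chromosome 9, 35681992 to 35690121), had 1.20 FPKM in C4-2B, then 1.62 in TaxR and 3.29 in CabR, and 6.32 FPKM in DU145, then 7.52 in DTXR and 9.30 in CTXR. Its log2 ratio was 0.97 in CabR, which misses the size rule and passes it at 1.39 with a pseudocount of 0.1. TPM3, the most abundant tropomyosin gene, held 66.5% of the summed tropomyosin FPKM in TaxR and 70.2% in CabR, against 52.3% in C4-2B. In the DU145 lineage it held 60.5% in DTXR and 65.9% in CTXR, against 62.7% in DU145. TPM4 was lower by the size rule in TaxR and CabR (24.3 and 18.7 FPKM, against 53.5 in C4-2B).

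PFN1, profilin 1 (chromosome 17, 4945652 to 4949061), differed little within the C4-2B lineage, at 606 FPKM in C4-2B, then 594 in TaxR and 606 in CabR. It had 629 FPKM in DU145, then 848 in DTXR and 1068 in CTXR, with log2 ratios of 0.43 and 0.76 that did not pass the size rule. CFL1, cofilin 1 (chromosome 11, 65823022 to 65862026), had 492 FPKM in C4-2B, then 504 in TaxR and 459 in CabR, and 355 FPKM in DU145, then 560.4 in DTXR and 544 in CTXR. For CFL1 the log2 ratios were 0.66 in DTXR and 0.61 in CTXR. A cofilin pseudogene, CFL1P1 (chromosome 10, 87817928 to 87845612, GRCh38), had 4.27 FPKM in DTXR and 6.18 in CTXR, against 41.2 in DU145, so pseudogene FPKM amounted to 11.8% of the CFL1 level in DU145 and at most 1.21% in the 5 other lines. How reads were divided between these copies is uncertain. Among the other members, pseudogene FPKM came to at most 0.998% of the gene's level in any line; the 10 genes have 59 such pseudogenes in all. LIMK1, the kinase that phosphorylates and switches off cofilin, was higher in DTXR and CTXR (37.2 and 25.4 FPKM, against 9.76 in DU145) and had 21.1 FPKM in TaxR and 24.9 in CabR, against 18.7 in C4-2B.

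MYL9, a regulatory light chain of myosin II (chromosome 20, 36541484 to 36551447), lay under 1 FPKM in C4-2B and was higher in both of its sublines. It had 0.272 FPKM in C4-2B, then 2.21 in TaxR and 2.40 in CabR, with log2 ratios of 1.34 and 1.42 to the parent. In the DU145 lineage it had 29.9 FPKM in DU145, then 33.3 in DTXR and 50.4 in CTXR, with log2 ratios of 0.15 and 0.73. With the median DU145-side share of 1.54% subtracted, TaxR had 1.75 FPKM of MYL9 and a log2 ratio of 1.11. With the highest share of 5.26%, it had 0.640 FPKM and a log2 ratio of 0.37, short of the rule. The median excess of these markers in CabR was 0.0463%, and their part in the MYL9 level of TaxR was not tested beyond this subtraction. The related light chains MYL12A and MYL12B were far more abundant, and MYL9 held 0.815% of the summed FPKM of all 3 in TaxR and 0.949% in CabR, against 0.118% in C4-2B. It held 6.44% in DTXR and 8.65% in CTXR, against 7.70% in DU145.

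**Figure D3:**
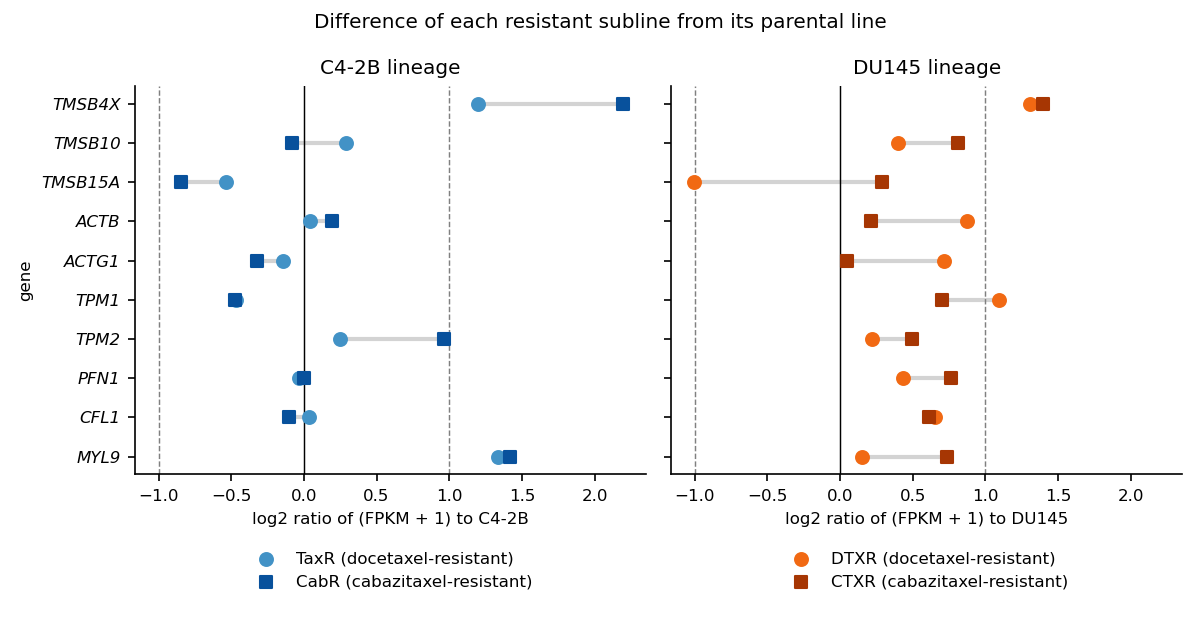
Log2 ratio of (FPKM + 1) of each gene in the docetaxel-resistant (circle) and cabazitaxel-resistant (square) subline to the parental line, with grey bars joining the sublines and dashed lines at -1 and 1. In the DU145 lineage all points lie right of 0 except TMSB15A in DTXR (ACTG1 in CTXR moves left of 0 under the same non-mitochondrial total), while in the C4-2B lineage TMSB4X and MYL9 alone lie beyond the dashed line.

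Counted together, 2 of the 10 genes were higher and none lower in TaxR than in C4-2B, where 2.52% of all measured genes were higher and 5.64% lower; the count is 1, TMSB4X, with the highest DU145-side share subtracted from TaxR. In CabR, likewise set against C4-2B, the same 2 genes, TMSB4X and MYL9, were higher, where 2.67% of measured genes were higher and 6.2% lower. In DTXR against DU145, TMSB4X and TPM1 were higher and TMSB15A lower, beside 5.37% and 5.1% of measured genes. In CTXR against DU145, TMSB4X was higher and no member lower, beside 7.45% and 5.47% of measured genes. These contrasts were used to choose the genes, so nothing is read from the counts. The median log2 ratio of the 10 genes was 0.04 in TaxR and -0.04 in CabR, beside medians of all measured genes of -0.00 in both. It was 0.54 in DTXR and 0.66 in CTXR, beside 0.00 in both. Of the 10 genes 9 in DTXR and 10 in CTXR had a ratio above 0, or 9 in CTXR with libraries scaled to the same non-mitochondrial total, which leaves ACTG1 below 0. Of all measured genes 48.5% in DTXR and 48.2% in CTXR had a ratio above 0. This background was not matched for expression level, and low genes are drawn towards 0. In the cabazitaxel steps, no member passed in CabR against TaxR (1.75% of measured genes higher and 1.84% lower) and TMSB15A was higher in CTXR against DTXR (7.29% higher and 5.25% lower). Summed over the 10 genes, FPKM was 3254 in TaxR and 3232 in CabR, against 3238 in C4-2B, and 5926 in DTXR and 5187 in CTXR, against 3692 in DU145.

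In the values as deposited, the parental lines differed more from each other than any subline did from its parent for TMSB10, TMSB15A, TPM1, TPM2 and MYL9. The log2 ratio of DU145 to C4-2B was 1.24 for TMSB10, -1.19 for TMSB15A, -1.83 for TPM1, 1.73 for TPM2 and 4.60 for MYL9, and it was 2.11 for TMSB4X. In all, 4 members were higher in DU145 (TMSB4X, TMSB10, TPM2 and MYL9) and 2 lower (TMSB15A and TPM1), where 17.3% of measured genes were higher and 19.5% lower. Libraries scaled to the same non-mitochondrial total moved the median of all measured genes in this comparison up by 0.19 and left TMSB15A short of the rule at -0.93. Ordered by level, TMSB4X, TMSB10, TPM2, PFN1 and MYL9 had CTXR as the highest line and DTXR as the next. ACTB, ACTG1 and CFL1 were highest in DTXR, while TMSB15A and TPM1 were highest in C4-2B. With a single library per line, no neighbours in these orders can be told apart by their spread.

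The wider actin machinery was followed with 120 further genes listed by role, of which 109 were measured. The muscle actins ACTA1, ACTC1 and ACTG2 and the smooth muscle gene CNN1 were among those that did not reach 1 FPKM in any line. Against C4-2B, TaxR had 1 higher and 3 lower, beside 2.52% and 5.64% of all measured genes, and CabR had none higher and 3 lower, beside 2.67% and 6.2%. The medians of the list were 0.02 and 0.01. The 3 genes lower in both were TPM4, the membrane-linked actin-binding protein SVIL and the filament bundler PLS3. SVIL had 1.25 FPKM in TaxR and 1.04 in CabR, against 3.96 in C4-2B, and PLS3 had 13.6 in TaxR and 14.3 in CabR, against 29.9 in C4-2B. The log2 ratio of PLS3 in CabR was -1.01, which ran to -0.95 under the other scalings and so fell short of the rule. The formin FMNL2 was the gene higher in TaxR (1.25 FPKM, against 0.112 in C4-2B), and no wider-list gene was higher there with either DU145-side share subtracted. FMNL2 had 1.20 FPKM in CabR and a log2 ratio of 0.99, and was named after its values were seen.

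Against DU145, 10 of the 109 genes were higher and 3 lower in DTXR, beside 5.37% and 5.1% of all measured genes. In CTXR 9 were higher and 1 lower, beside 7.45% and 5.47%. The medians were 0.29 in DTXR and 0.22 in CTXR, beside 0.00 for all measured genes, and 77.1% and 67.0% of the list had a ratio above 0, beside 48.5% and 48.2% of all measured genes. Here too the background was not matched for expression level, and low genes are drawn towards 0, so no trait of actin genes is read from these shares. Under the same non-mitochondrial total the CTXR medians became 0.10 for the list and -0.08 for all measured genes, and the genes past the rule in CTXR turned to 1125 higher and 1235 lower, against 1299 and 953 as deposited. Apart from LIMK1, the genes higher in both sublines were CAPG, MYLK, SCIN, FMN2 and CALD1. CAPG, which caps the growing end of filaments, had 21.0 FPKM in DTXR and 29.8 in CTXR, against 0.569 in DU145. CALD1, caldesmon, which binds actin and tropomyosin and holds back myosin, had 13.6 FPKM in DTXR and 5.68 in CTXR, against 0.400 in DU145, and 58.9 to 99.1 FPKM in the C4-2B lineage.

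MYLK, the kinase that phosphorylates regulatory myosin light chains such as MYL9, had 6.76 FPKM in DTXR and 7.08 in CTXR, against 2.49 in DU145. FMN2, a formin that starts new filaments, had 10.7 FPKM in DTXR and 8.43 in CTXR, against 0.366 in DU145. SCIN, a severing protein of the gelsolin family, had 2.07 FPKM in DTXR and 1.66 in CTXR, against 0.328 in DU145, and its CTXR log2 ratio of 1.005 fell to 0.98 under another scaling. Between CTXR and DTXR, 5 genes of the wider list were higher (FSCN1, MYH14, FMNL1, PALLD and ARPC1B) and 4 lower (SVIL, COBL, MYH9 and CALD1), beside 7.29% and 5.25% of all measured genes. Of these, all but SVIL and CALD1 were named after their values were seen, as were RHOC, MYL6, ARPC5 and ACTR3. The bundler FSCN1, fascin, had 7.20 FPKM in DTXR and 47.5 in CTXR, against 39.0 in DU145. The myosin heavy chain MYH9 had 124 FPKM in DTXR and 47.4 in CTXR, against 47.6 in DU145, and SVIL had 51.3 in DTXR and 4.15 in CTXR, against 5.33 in DU145. RHOC and the essential light chain MYL6 were higher in CTXR (64.9 and 812 FPKM, against 25.9 and 299 in DU145) and had log2 ratios of 0.81 and 0.78 in DTXR. Of the 9 measured Arp2/3 complex subunits, which branch filaments, ARPC5 passed the rule against a parent, in CTXR at 1.23. ACTR3 had a log2 ratio of 0.98 in TaxR, which reached 1.03 under another scaling.

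**Figure D4:**
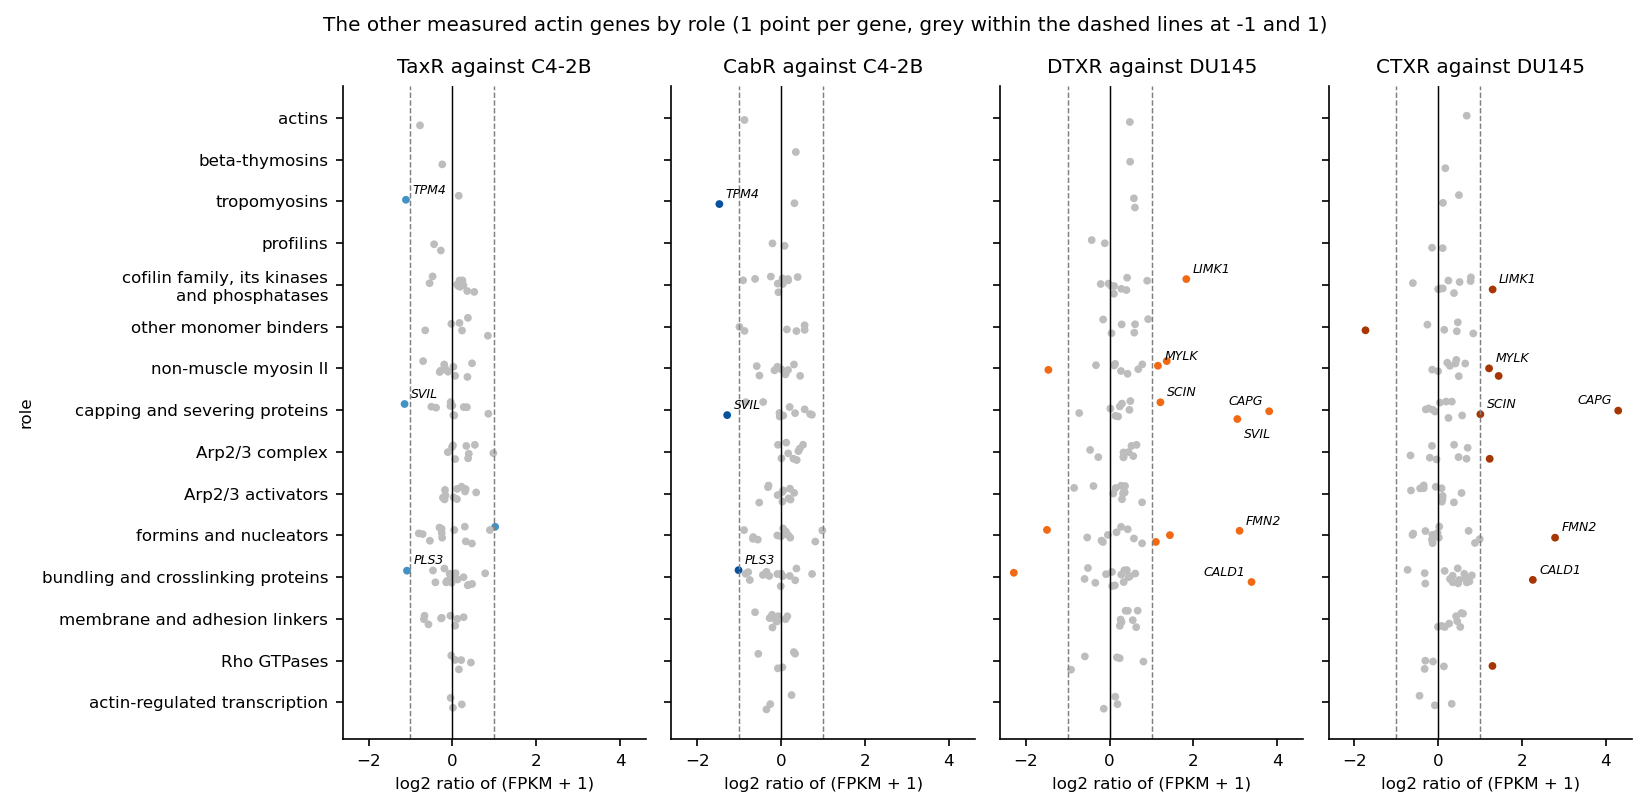
Log2 ratio of (FPKM + 1) of the 109 measured genes of the wider list in each resistant subline to its parent, with genes grouped by role and 1 point per gene. Coloured points lie at or beyond the dashed lines at -1 and 1, numbering 4 for TaxR, 3 for CabR, 13 for DTXR and 10 for CTXR.

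The selection was made in 2 parental lines, which is the only replication in the design. A limma fit over all 6 libraries, with lineage and stage of selection as terms, found no measured gene with a Benjamini-Hochberg adjusted p under 0.05 for the docetaxel-resistant stage (0% called) or the cabazitaxel-resistant stage (0% called). The smallest adjusted p was 0.141 for the docetaxel-resistant and 0.152 for the cabazitaxel-resistant stage. The fit had 2 residual degrees of freedom, and even ABCB1, with log2 ratios of 5.73 to 9.54 to the parent, was not called. The lack of calls is therefore not read as a lack of differences. At an unadjusted p under 0.05 there were 290 genes higher and 482 lower at the docetaxel-resistant stage, and 343 higher and 492 lower at the cabazitaxel-resistant stage. Of the wider actin list, 6 genes were higher and 1 lower at that level for the docetaxel-resistant stage, and 4 higher and 1 lower for the cabazitaxel-resistant stage, with smallest adjusted p of 0.93 and 0.864. No p is given for the 10 genes, which were chosen on this contrast.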

How the data were processed

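RNA was measured in 6 cell lines with 1 library each, grouped by the phenotype label. Per the labels' protocols, stranded mRNA libraries were made from TRIzol RNA. The submitters' processing notes name HISAT, StringTie, Cuffnorm and GRCh38. Annotation, tool versions, strand use in counting and any joint scaling of libraries are not given in these sources. The deposited values are FPKM per Ensembl gene, per the file headers, and so model-based estimates without counts, in which a gene listed at 0 may be a failed estimate. Reads of overlapping genes and of near-identical copies were divided by the authors' software.

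Of 60658 identifiers 56550 were matched to symbols. Coordinates and coding sequences are from GENCODE release 29 (GRCh38) and promoters from RefSeq (GRCh38.p14). Ratios are log2(FPKM + 1) differences, called at 1 in size. limma 3.58.1 (R 4.3.3) was fitted with an intensity trend, moderation and two-sided tests. The code of this fit and of the size rule was run on simulated data with planted changes, which does not test either on data like these. Named genes are the 10 members, wider-list genes past the size rule in the same direction in both sublines of a lineage (at most 4 per role), and the 5 genes closest to TMSB4X over the 4 ratios to the parent. The members and lists were chosen with earlier results of these data known. A further gene of the C4-2B-side marker list is not reported here. Alternatives were a pseudocount of 0.1, 3 rescalings, other filters, subtraction of the DU145-side share from TaxR, pseudogene FPKM added, and, for limma, no trend and each library left out. The highest DU145-side share, TaxR left out, and the settings for genes higher in all sublines, were added after seeing the data. Python 3.11.15 with numpy 2.4.6, pandas 2.3.3 and matplotlib 3.10.9 was used.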

Additional observations from a re-analysis of the deposited data

Results flagged for a closer look

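Of the 10 members and the 9 wider-list genes named by rule, 6 lay above the parent in both sublines of DU145 and below it in both sublines of C4-2B, as given next. Over the 109 measured genes of the wider list, 26 lay on opposite sides of the parent in the lineages, in either direction. The share over all measured genes was not counted, so neither count is read as a trait of actin genes. The 9 wider-list genes were named for passing the rule in both sublines of 1 lineage, so their direction in that lineage was fixed in advance. Between lineages the difference was not tested, since each lineage has 1 library per stage. The mean log2 ratio to the parent was higher in the DU145 lineage than in the C4-2B lineage by 1.37 for TPM1 (0.90 against -0.47), 1.65 for TPM4 (0.36 against -1.29) and 1.45 for PLS3 (0.40 against -1.05). It was higher by 0.62 for ACTG1 (0.38 against -0.23), 0.61 for PFN1 (0.60 against -0.02) and 1.12 for SCIN (1.11 against -0.02). For PFN1 and SCIN the C4-2B side is next to 0. The sign of PFN1 in both C4-2B sublines, and of ACTG1 in CTXR, turned under other scalings.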

How the results depend on the processing

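No paired analysis was possible because each line has 1 library and the labels carry no replicate numbers; lineage is a term of the limma fit. Depth is unknown and limits the low values most. No log2 ratio of a member past the size rule changed sign under any alternative; of 390 re-computed ratios 380 stayed on their side of the rule, 8 came past it and 2 fell short.

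In CabR against TaxR the count of members higher turned to 1, against 0, with a pseudocount of 0.1, the same upper quartile, the same non-mitochondrial total, the median DU145-side share subtracted or pseudogene FPKM added, each time through TMSB4X just past the rule. Members lower in DU145 against C4-2B became 1, against 2, under the same non-mitochondrial total. That total also gave 3863 genes higher and 2598 lower in DU145 against C4-2B, against 3009 and 3395 as deposited, and 28 and 13 of the wider list, against 23 and 18.

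A pseudocount of 0.1, which gives low genes more weight, raised the counts. The wider list then had 6 higher with 6 lower for TaxR and 5 with 5 for CabR against C4-2B, 2 and 2 in CabR against TaxR, and 2 lower in CTXR against DU145. All measured genes then gave 1228 higher with 1917 lower for TaxR and 1209 with 2051 for CabR against C4-2B, and 929 and 1145 in CabR against TaxR. They gave 1613 and 1832 in DTXR and 2187 and 1810 in CTXR against DU145, and 2288 and 1631 in CTXR against DTXR. Genes higher in all 4 sublines became 57. The limma fit called 1 gene at the cabazitaxel-resistant stage with that pseudocount and 0 in every other setting, each library left out in turn included.

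The wider-list count higher in TaxR was 2 under median-ratio factors and under the same upper quartile, and 0 with the median DU145-side share subtracted. With the highest share subtracted from TaxR, added after seeing the data, members higher in TaxR against C4-2B became 1, against 2, as MYL9 fell short at 0.37, and members higher in CabR against TaxR became 2, TMSB4X at 1.15 and MYL9 at 1.05. The wider list then had 0 higher in TaxR against C4-2B and 1 in CabR against TaxR. With TaxR left out, 14 genes were higher in CabR, DTXR and CTXR.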
